A study of Homo sapiens with 18 samples.

Results

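PHOX2A, HAND1 and HAND2 are 3 of the 28063 genes with a row in each count file, and they were taken by symbol. They are transcription factor genes of the sympathetic nervous system, and HAND1 and HAND2 are paralogs of each other. All 3 passed the filter on low counts. The libraries counted newly made RNA in established human neuroblastoma lines, 2 libraries per group. SK-N-DZ, KELLY and IMR-32 cells, all unmodified, received DMSO or 1 uM BRM014, which inhibits SMARCA4 and SMARCA2, the ATPases of BAF chromatin remodelling complexes. A line made from IMR-32, engineered to carry SMARCA4 fused to an auxin-inducible degron (SMARCA4-mAID) received 500 uM auxin, which triggers degradation of the fusion protein, or ethanol. All 16 of these libraries came from cells given 500 uM 4-thiouridine for 2 h, and 2 further KELLY libraries were left unlabelled. The sources used here do not give the length of either treatment, nor whether the engineered line is 1 clone.

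HAND1 and HAND2 are basic helix-loop-helix factors, which bind DNA at E-boxes (CANNTG) as dimers, often with the broadly expressed E-proteins. PHOX2A is a paired-type homeodomain factor. PHOX2 and HAND factors act together in developing sympathetic neurons, where they help to switch on genes for noradrenaline synthesis, and HAND2 belongs to the set of factors that maintain the adrenergic state of neuroblastoma cells. HAND1 and HAND2 are also known from heart development.

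Labelled libraries held 724913 to 1740475 gene counts. BRM014 libraries of IMR-32 (741970 and 775064 counts) and SK-N-DZ (724913 and 758288) were shallower than their DMSO libraries (1438139 and 1148208 in IMR-32, 1589230 and 1740475 in SK-N-DZ), and those of KELLY were not. In IMR-32 the reads without a feature were 57.3% and 57.4% with BRM014 and 50.8% and 53.5% with DMSO, and the part of either difference in the results was not tested. A gene was called at an adjusted p below 0.05 over all 12853 genes tested. New SMARCA4 RNA was not called in any treatment comparison (log2 changes from -0.38 to 0.08). It checks neither treatment, because BRM014 acts on the enzyme's activity and auxin on the protein. SMARCA4 stood at 783 ± 82.9 counts per 1000000 gene counts (CPM; mean ± SD, n = 2, as throughout) in SMARCA4-mAID cells with ethanol and 93.7 ± 11.6 CPM in IMR-32 with DMSO. SMARCA2 had no count in the 4 labelled KELLY libraries, and 0 counts allow up to 3 per library. The 10 adrenergic markers summed to 1098 to 4690 CPM per library, and 10 mesenchymal markers to 80.4 to 480 CPM. The 4 blood markers summed to at most 1.83 CPM, the 4 heart muscle markers to at most 4.05 CPM and the 6 Schwann markers to at most 12.6 CPM.

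On the hg38 assembly PHOX2A lies on chromosome 11 (72239077 to 72245664, minus strand, 3 exons in the longest transcript of 1699 bp). HAND1 lies on chromosome 5 (154474972 to 154478264, minus strand, 2 exons, 1738 bp), and HAND2 on chromosome 4 (173524969 to 173530229, minus strand, 2 exons, 2780 bp). The antisense RNA HAND2-AS1 (173527270 to 173659696, plus strand) starts inside HAND2 and shares 867 exonic bases with it, 24.1% of the exonic bases of HAND2. Since the strand setting is not given, reads of that stretch could have been counted for either gene or, as ambiguous reads, for neither. Ambiguous reads made up 1.11% to 1.71% of labelled libraries. INPPL1 overlaps the 3′ end of PHOX2A in RefSeq. It held 5 to 73 counts per labelled library. The transcripts differ in base composition: GC content was 66.5% in PHOX2A, above 97.4% of genes, 57.4% in HAND1, 58.5% in HAND2 and 41.2% in HAND2-AS1.

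In the main fit PHOX2A and HAND1 changed in the same direction in the 3 treatment comparisons that called both. HAND2 was called in no treatment comparison of that fit. The promoters are shown for that reason. Each sequence runs from 250 bases before to 20 bases after the RefSeq start on GRCh38.p14, 5′ to 3′ on the gene's strand, with matches to the E-box CANNTG, to CCAAT and to TATATAA on either strand in capitals. The windows are chr11:72244157-72244426, chr5:154478208-154478477 and chr4:173530210-173530479, all on the minus strand. The PHOX2A window lies wholly inside the gene bounds given above, which come from GENCODE and reach 72245664. It is therefore upstream of the RefSeq start and not of that whole span.
PHOX2A: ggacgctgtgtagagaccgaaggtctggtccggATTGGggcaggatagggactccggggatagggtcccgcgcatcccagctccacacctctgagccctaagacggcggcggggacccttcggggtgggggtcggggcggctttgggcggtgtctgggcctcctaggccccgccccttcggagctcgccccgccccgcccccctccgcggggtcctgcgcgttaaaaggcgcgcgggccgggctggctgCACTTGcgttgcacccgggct
HAND1: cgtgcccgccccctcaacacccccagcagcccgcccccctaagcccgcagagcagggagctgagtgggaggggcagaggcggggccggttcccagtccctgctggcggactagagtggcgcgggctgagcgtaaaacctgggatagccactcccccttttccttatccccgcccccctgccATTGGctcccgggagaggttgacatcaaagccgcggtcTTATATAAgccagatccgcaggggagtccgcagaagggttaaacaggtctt
HAND2: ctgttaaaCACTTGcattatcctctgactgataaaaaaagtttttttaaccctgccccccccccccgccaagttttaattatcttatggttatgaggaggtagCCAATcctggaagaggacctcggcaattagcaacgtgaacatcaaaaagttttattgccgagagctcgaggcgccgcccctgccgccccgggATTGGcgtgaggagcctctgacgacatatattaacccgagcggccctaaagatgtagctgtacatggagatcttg
The HAND1 promoter holds TATATAA in 2 overlapping matches, 1 on each strand, which begin 31 and 30 bases before the start. This motif occurs in 2.73% of 27305 promoter windows of 300 bases, and neither PHOX2A nor HAND2 has it. CCAAT is found once in PHOX2A (-217) and HAND1 (-69) and at -147 and -55 in HAND2, and in 35.7% of all promoters. An E-box lies at -1 in PHOX2A and at -242 in HAND2, with none in this window of HAND1, and 68.9% of promoters hold one. GC content of the 300-base window was 73.7% in PHOX2A, 66.0% in HAND1 and 50.3% in HAND2, against a median of 58.3%. These matches describe letters only.

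The first question was how the level of each factor in vehicle cells differs between lines. HAND2 was plentiful in every line, whereas HAND1 was low in IMR-32 and high in SK-N-DZ and KELLY. In bulk libraries fewer cells making a gene and less RNA per cell cannot be told apart. HAND1 stood at 74.4 and 61.0 CPM in the IMR-32 DMSO libraries, 625 and 704 CPM in those of SK-N-DZ and 443 and 406 CPM in those of KELLY. No library of one line overlapped another. The fit put HAND1 5.60-fold higher in KELLY than in IMR-32 (log2 2.49, SE 0.17, adjusted p = 2.92e-24), 8.83-fold higher in SK-N-DZ than in IMR-32 (adjusted p = 2.31e-31) and 1.58-fold higher in SK-N-DZ than in KELLY (adjusted p = 4.1e-05). HAND2 stood at 783 and 708 CPM in SK-N-DZ, 1332 and 1182 CPM in KELLY and 737 and 686 CPM in IMR-32, so KELLY lay above the other lines, which overlapped. HAND2 was 1.59-fold higher in KELLY than in IMR-32 (adjusted p = 1.19e-08). It was 1.67-fold lower in SK-N-DZ than in KELLY (adjusted p = 4.32e-10), and SK-N-DZ and IMR-32 differed by -0.08 on the log2 scale (95% interval -0.27 to 0.12), a difference that an offset for GC content and transcript length moved to -0.92 and over the threshold. PHOX2A stood at 855 and 895 CPM in SK-N-DZ, 392 and 371 CPM in KELLY and 273 and 253 CPM in IMR-32, with no overlap between lines. It was 1.30-fold higher in KELLY than in IMR-32 (adjusted p = 0.00649) and 3.02-fold higher in SK-N-DZ than in IMR-32 (adjusted p = 6.19e-22), and SK-N-DZ exceeded KELLY 2.31-fold (adjusted p = 4.03e-16). The call between KELLY and IMR-32 was lost without the second IMR-32 library (adjusted p = 0.0848) or the first KELLY library (adjusted p = 0.0879). Of the 3 genes, 3 were called between KELLY and IMR-32, where 39.6% of all genes were called, 2 between SK-N-DZ and IMR-32 (44.1%) and 3 between SK-N-DZ and KELLY (31.8%).

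Levels of different genes were compared per kb of the longest transcript. In IMR-32 the order was HAND2 (256 ± 12.9 CPM per kb), PHOX2A (154.5 ± 8.33) and HAND1 (38.9 ± 5.47). In SK-N-DZ it was PHOX2A (515 ± 16.7), HAND1 (382 ± 31.9) and HAND2 (268 ± 18.9). In KELLY, HAND2 led (452 ± 38.1) and HAND1 (244 ± 15.1) and PHOX2A (224 ± 8.80) lay close together without overlap. The order in SK-N-DZ depends on the length used: per kb of coding sequence HAND2 stood at 1145, HAND1 at 1030.5 and PHOX2A at 1027 CPM. SMARCA4-mAID cells with ethanol kept the order of IMR-32, with 211 ± 0.0285 CPM per kb for HAND2, 169.6 ± 20.4 for PHOX2A and 25.4 ± 1.85 for HAND1. Against IMR-32 with DMSO, HAND1 was 1.57-fold lower (adjusted p = 0.0361) and HAND2 1.24-fold lower (adjusted p = 0.0449) in the engineered cells, and PHOX2A was not called (adjusted p = 0.748). Both calls were lost in DESeq2 (adjusted p = 0.19 for HAND1 and 0.107 for HAND2) and without the first DMSO library of IMR-32 (0.425 and 0.369) or either ethanol library (0.116 to 0.294), and that of HAND2 also without the second DMSO library (0.0819). Of 11 alternatives, 7 kept the HAND1 call and 4 kept that of HAND2. In the main fit 2 of 3 genes were called, where 6.16% of all genes were called. Line and vehicle differ together there and cannot be told apart.

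**Figure D1:**
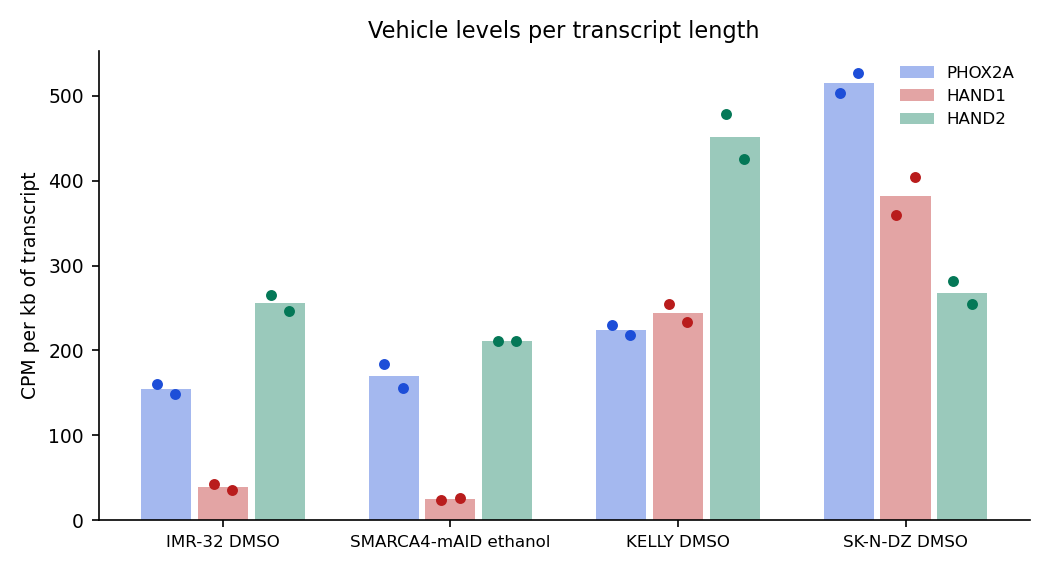
Level of PHOX2A, HAND1 and HAND2 in the 4 vehicle groups, in CPM per kb of the longest transcript; bars are means of 2 libraries and points are the libraries. HAND2 leads in IMR-32, SMARCA4-mAID and KELLY and PHOX2A in SK-N-DZ, and HAND1 is lowest in both IMR-32 groups (38.9 and 25.4 CPM per kb).

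HAND1 rose with either treatment in IMR-32 and its engineered derivative, where it started low, and fell with BRM014 in SK-N-DZ and KELLY. In IMR-32 it stood at 74.4 and 61.0 CPM with DMSO and 99.7 and 116 CPM with BRM014. These groups did not overlap, and the rise was 1.64-fold (log2 0.71, SE 0.20, adjusted p = 0.00864). The call rests on few counts (70 to 107 per library) and was lost without the second BRM014 library (0.56, adjusted p = 0.158), without the second DMSO library (0.58, adjusted p = 0.113) and in DESeq2 (adjusted p = 0.0529). In SMARCA4-mAID cells HAND1 stood at 41.8 and 46.4 CPM with ethanol and 112 and 117 CPM with auxin. This 2.59-fold rise (log2 1.37, SE 0.19, adjusted p = 7.35e-08) was larger than that of 96.8% of tested genes. In KELLY HAND1 stood at 443 and 406 CPM with DMSO and 104 and 196 CPM with BRM014, and both treated libraries lay far below both controls although they differed from each other. The fall was 2.75-fold (log2 -1.46, SE 0.15, adjusted p = 8.22e-14). In SK-N-DZ the values were 625 and 704 CPM with DMSO and 458 and 463 CPM with BRM014, a 1.44-fold fall (log2 -0.52, SE 0.14, adjusted p = 0.00316). The SK-N-DZ call was lost in DESeq2 (adjusted p = 0.109) and without the second DMSO library (-0.43, adjusted p = 0.0701).

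HAND2 was called in 0 of the 4 treatment comparisons in edgeR and in DESeq2, and its unadjusted p was below 0.05 in 1 of them, auxin. In IMR-32 it stood at 737 and 686 CPM with DMSO and 706 and 655 CPM with BRM014, and the log2 change was -0.02 (95% interval -0.22 to 0.19, adjusted p = 0.965). In KELLY the values were 1332 and 1182 CPM with DMSO and 1288 and 1291 CPM with BRM014 (log2 0.08, 95% interval -0.11 to 0.27, adjusted p = 0.695). In SK-N-DZ they were 783 and 708 CPM with DMSO and 741 and 957 CPM with BRM014 (log2 0.20, 95% interval 0.00 to 0.39, adjusted p = 0.165). The groups overlapped in each of these lines. In SMARCA4-mAID cells HAND2 stood at 588 and 588 CPM with ethanol and 622 and 783 CPM with auxin, without overlap (log2 0.26, 95% interval 0.06 to 0.45, adjusted p = 0.191). Leaving out the first BRM014 library of SK-N-DZ (0.36, adjusted p = 0.0202) or the first auxin library (0.42, adjusted p = 0.0279) made HAND2 pass the threshold.

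PHOX2A fell with BRM014 in 2 lines, SK-N-DZ and KELLY, and rose with auxin. In KELLY it stood at 392 and 371 CPM with DMSO and 213 and 188 CPM with BRM014, a 1.85-fold fall (log2 -0.89, SE 0.12, adjusted p = 5.73e-09). In SK-N-DZ the values were 855 and 895 CPM with DMSO and 464 and 567 CPM with BRM014, a 1.69-fold fall (log2 -0.76, SE 0.11, adjusted p = 1.19e-07). In IMR-32 they were 273 and 253 CPM with DMSO and 295 and 274 CPM with BRM014, a difference of 0.16 on the log2 scale that was not called (95% interval -0.09 to 0.42, adjusted p = 0.466). With auxin PHOX2A went from 313 and 264 to 485 and 515 CPM, a 1.74-fold rise (log2 0.80, SE 0.11, adjusted p = 3.38e-07). The groups did not overlap in any of the 4 comparisons, though in IMR-32 only by 274 against 273 CPM. For any of the members, non-overlap of 2 libraries with 2 carries little weight. The share of all genes without overlap was not counted. Of the 3 members, 1 was called with BRM014 in IMR-32, where 12.8% of all genes were called, 2 in SK-N-DZ (19.4%), 2 in KELLY (11.6%) and 2 with auxin (2.19%).

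**Figure D2:**
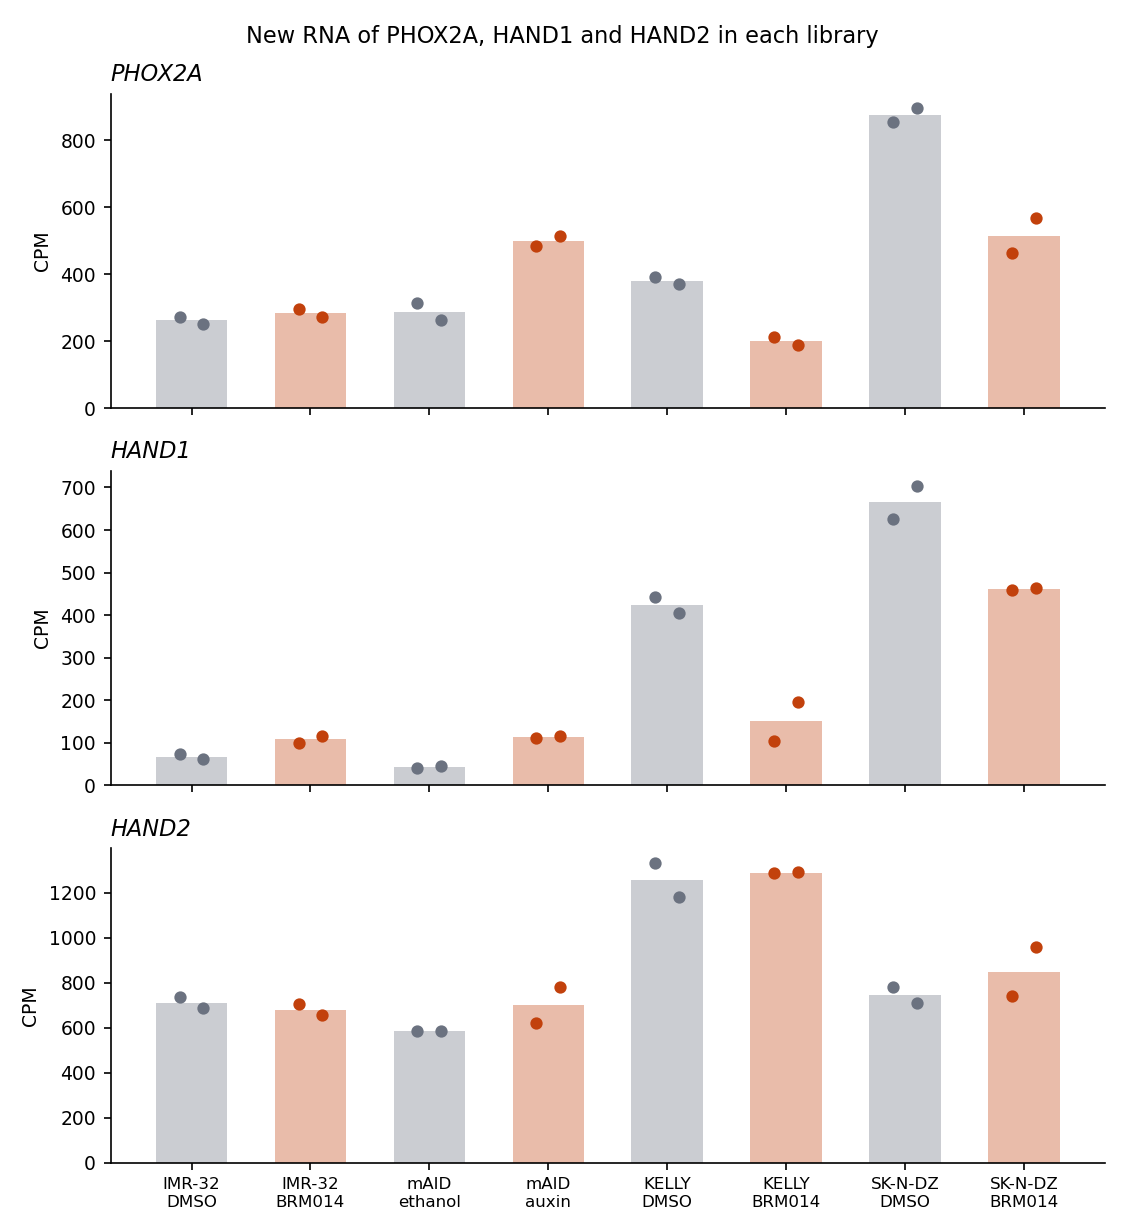
New RNA of PHOX2A, HAND1 and HAND2 in CPM for each of the 16 labelled libraries (points), with bars at the group means; grey is vehicle and orange is treated. HAND1 and PHOX2A drop with BRM014 in KELLY and SK-N-DZ and are higher with auxin, and HAND2 libraries of treated and vehicle cells lie close together.

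The 3 BRM014 responses were compared in the same fit. The HAND1 response in KELLY lay 2.17 below that in IMR-32 on the log2 scale (difference -2.17, SE 0.25, adjusted p = 8.13e-11), and that in SK-N-DZ lay 1.24 below (difference -1.24, SE 0.24, adjusted p = 0.000333). The fall in KELLY also exceeded that in SK-N-DZ (difference 0.94, SE 0.20, adjusted p = 0.00106), a call lost in DESeq2 (adjusted p = 0.0821) and without the first BRM014 library of KELLY (0.56, adjusted p = 0.15). PHOX2A responded lower in KELLY (-1.05, adjusted p = 8.67e-06) and in SK-N-DZ (-0.92, adjusted p = 0.000122) than in IMR-32, and KELLY and SK-N-DZ differed by 0.13 (95% interval -0.20 to 0.46). For HAND2 no difference between lines was called, and the 3 estimates ran from 0.09 to 0.21. The members called were 2 of 3 between KELLY and IMR-32, where 3.28% of all genes were called, 2 between SK-N-DZ and IMR-32 (2.61%) and 1 between SK-N-DZ and KELLY (3.9%). Within IMR-32 background, BRM014 in unmodified cells was set against auxin in SMARCA4-mAID cells. Agent, line and vehicle differ together there and cannot be told apart. BRM014 minus auxin was called for PHOX2A (-0.63, SE 0.17, adjusted p = 0.0267). That call was lost without any of 4 libraries (IMR-32 DMSO first, IMR-32 BRM014 second, ethanol second or auxin second). The difference was not called for HAND1 (-0.66, SE 0.28, adjusted p = 0.268) or HAND2 (-0.27, adjusted p = 0.419), 1 of 3 where 1.95% of all genes were called.

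Paralog was then set against paralog within each library, which needs no scaling factor. HAND2 counts exceeded HAND1 counts in every labelled library, by as little as 1233 against 1225 in the second SK-N-DZ DMSO library and as much as 885 against 63 in the first ethanol library. IMR-32 gave a log2 ratio of HAND2 to HAND1 of 3.39 ± 0.13 for DMSO and 2.65 ± 0.23 for BRM014, and its engineered derivative 3.73 ± 0.10 for ethanol and 2.60 ± 0.19 for auxin. It was 1.56 ± 0.03 in KELLY with DMSO and 3.17 ± 0.64 with BRM014, and 0.17 ± 0.22 in SK-N-DZ with DMSO and 0.87 ± 0.25 with BRM014. Treated and vehicle libraries did not overlap in any comparison, and the ratio shifted toward HAND1 in both IMR-32 settings (by -0.74 and -1.12) and toward HAND2 in KELLY (by 1.61) and SK-N-DZ (by 0.70). With 2 libraries against 2 each exact permutation p was 0.3333, the smallest that design can give. Over the 4 comparisons together the mean shift was 0.11 (exact permutation p = 0.7485, adjusted 0.7879), since the directions oppose each other. The shift in KELLY exceeded that in IMR-32 by 2.35 and that in SK-N-DZ exceeded it by 1.44, each with an exact permutation p of 0.0556, adjusted 0.2224. That is the smallest p its 36 relabellings can give, so this test could not reach 0.05.

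PHOX2A over HAND2 gave log2 ratios of -1.44 ± 0.0047 with DMSO and -1.26 ± 0.0015 with BRM014 in IMR-32. In SK-N-DZ the ratios were 0.23 ± 0.15 and -0.72 ± 0.06, and in KELLY -1.72 ± 0.07 and -2.69 ± 0.13. With ethanol and auxin it was -1.03 ± 0.17 and -0.48 ± 0.17. PHOX2A lost ground to HAND2 by nearly the same amount in KELLY (-0.97) and SK-N-DZ (-0.95), and gained on it in IMR-32 (0.18) and with auxin (0.55). Each exact permutation p was again 0.3333, and the 3 BRM014 comparisons together gave -0.58 (exact permutation p = 0.0556, adjusted 0.2224).

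**Figure D3:**
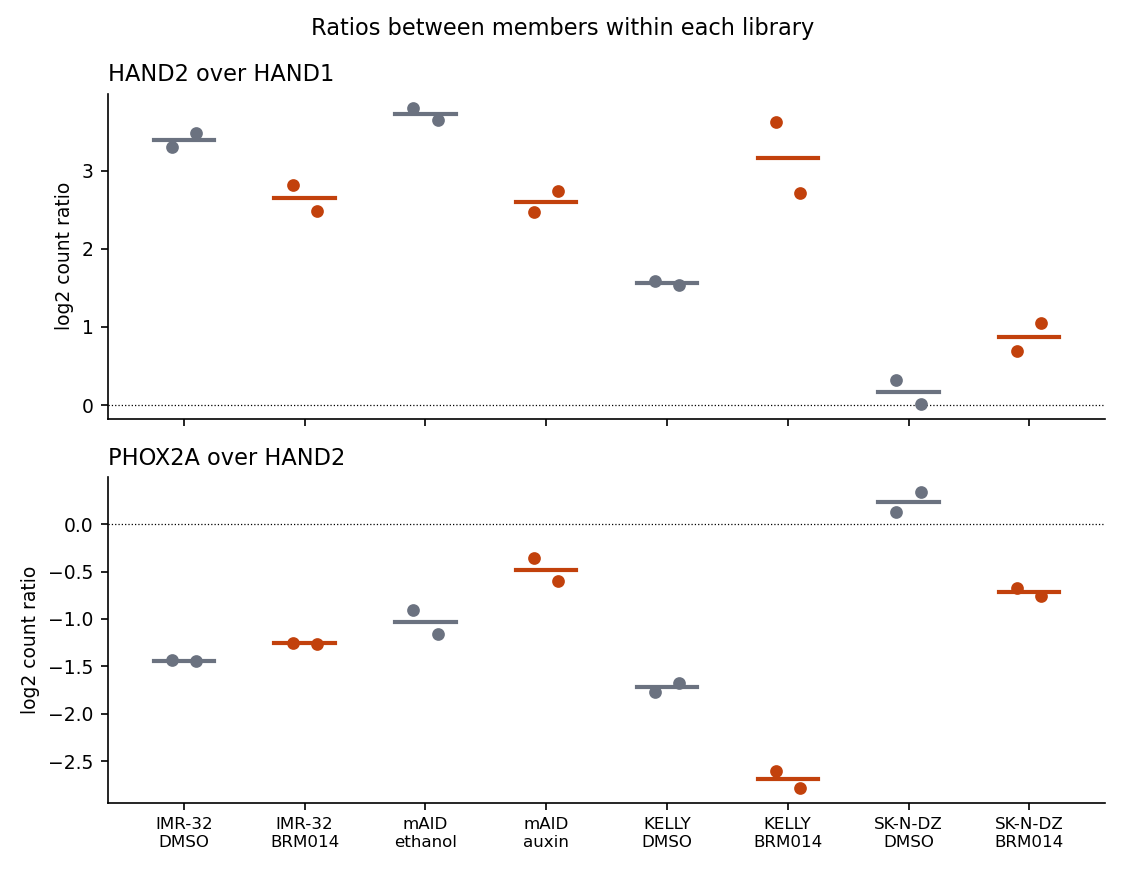
Log2 count ratio of HAND2 to HAND1 and of PHOX2A to HAND2 in each labelled library (points) with the group mean (line); grey is vehicle and orange is treated. The HAND2 to HAND1 ratio is lower after treatment in both IMR-32 settings and higher in KELLY and SK-N-DZ.

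The members' own changes depended on an offset for GC content and transcript length, and the difference between the HAND paralogs changed little. HAND1 and HAND2 are alike in GC content (57.4% and 58.5%), less so in length (1738 and 2780 bp). An offset built on these properties could hardly separate them, so it is a weak check of their difference. With the offset PHOX2A was called higher in IMR-32 (0.75, adjusted p = 6.05e-06), was no longer called in KELLY (-0.33, adjusted p = 0.0689) and turned to 0.08 in SK-N-DZ (adjusted p = 0.756). HAND1 kept its calls with auxin (1.46), in KELLY (-1.14) and in IMR-32 (1.06), and in SK-N-DZ it moved to -0.04 (adjusted p = 0.911). HAND2 became called higher in all 4 comparisons, by 0.71 in SK-N-DZ, 0.42 in KELLY, 0.38 in IMR-32 and 0.36 with auxin. The fitted HAND2 change minus the HAND1 change was 0.72 in SK-N-DZ, 1.54 in KELLY, -0.73 in IMR-32 and -1.12 with auxin, and with the offset 0.76, 1.56, -0.68 and -1.10. The PHOX2A change minus the HAND2 change was -0.95 in SK-N-DZ, -0.97 in KELLY, 0.18 in IMR-32 and 0.54 with auxin. The offset moved that difference to -0.64, -0.75, 0.37 and 0.60, with the same signs. Among vehicle levels, the offset left the HAND1 differences between the 3 unmodified lines called (1.99, 2.35 and 0.36). It turned PHOX2A in KELLY against IMR-32 to -0.31 (adjusted p = 0.0383) and removed the calls of PHOX2A in SK-N-DZ against IMR-32 (0.15) and of HAND2 in KELLY against IMR-32 (0.16). HAND2 in SK-N-DZ against IMR-32 became called lower (-0.92, adjusted p = 3.19e-14). Which fit is nearer to the cells was not tested.

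**Figure D4:**
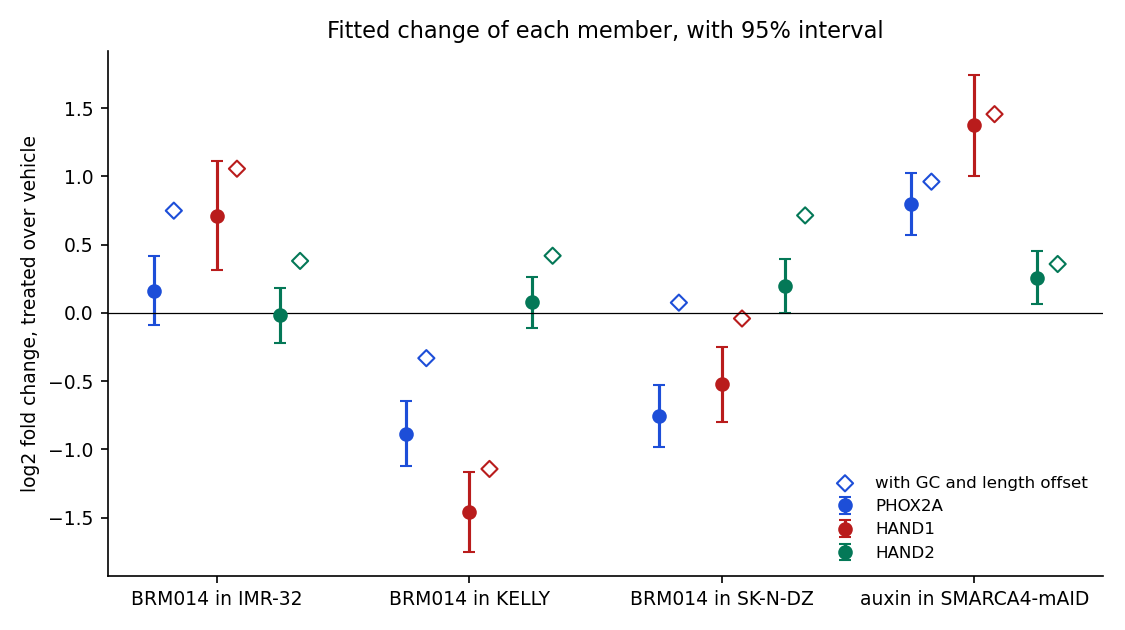
Log2 fold change of each member in the 4 treatment comparisons, as fitted with its 95% interval (filled circles) and with an offset for GC content and transcript length (open diamonds). The offset moves the 3 genes up together, and HAND1 stays below 0 in KELLY (-1.14) and above 0 with auxin (1.46).

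HAND2-AS1, the long noncoding antisense RNA of the HAND2 locus, fell with BRM014 in all 3 lines while HAND2 was not called in the main fit. It stood at 1861 and 1987 CPM with DMSO and 850.4 and 818 CPM with BRM014 in IMR-32 (log2 -1.16, SE 0.09, adjusted p = 5.24e-19). In KELLY it went from 1144 and 1138 to 394 and 460.3 CPM (log2 -1.38, adjusted p = 1.17e-23), and in SK-N-DZ from 686 and 714 to 341 and 414 CPM (log2 -0.88, adjusted p = 3.06e-12). With auxin HAND2-AS1 was not called, with 1276 and 1395 CPM against 1385 and 1335 CPM (log2 0.03). The difference between BRM014 in IMR-32 and auxin was called (-1.18, SE 0.12, adjusted p = 1.56e-11), and agent, line and vehicle differ together in it. The fall was smaller in SK-N-DZ than in KELLY (difference 0.49, SE 0.13, adjusted p = 0.0143), a call lost without the first BRM014 library of KELLY (0.39, adjusted p = 0.152) or the second of SK-N-DZ (0.35, adjusted p = 0.23). The log2 ratio of HAND2-AS1 to HAND2 shifted by -1.07 in SK-N-DZ, -1.46 in KELLY, -1.14 in IMR-32 and -0.22 with auxin. The 3 falls stayed called with the GC and length offset (-1.08, -1.57 and -1.29). With that offset HAND2 was called higher in the same lines (0.71, 0.42 and 0.38). Among vehicle groups HAND2-AS1 was highest in IMR-32, and lower in SK-N-DZ (-1.60), KELLY (-0.91) and SMARCA4-mAID cells (-0.55).

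Around the members, 11 of 20 neighbouring genes passed the filter, HAND2-AS1 included. With BRM014, 1 was called higher and 2 lower in SK-N-DZ, 0 and 3 in KELLY and 0 and 2 in IMR-32. With auxin 0 were called by edgeR or DESeq2, and 0 had an unadjusted p below 0.05. Over all genes 9.88% were called higher and 9.55% lower in SK-N-DZ, 6.57% and 4.98% in KELLY, 6.26% and 6.57% in IMR-32, and 1.03% and 1.16% with auxin. CLPB, a mitochondrial chaperone gene 41.3 kb from PHOX2A, fell in KELLY (-1.74, SE 0.30) and SK-N-DZ (-1.32, SE 0.30). HMGB2, a chromatin protein gene 191.7 kb from HAND2, fell in IMR-32 (-0.79) and KELLY (-0.38), the latter lost with the GC and length offset (-0.25, adjusted p = 0.221). SAP30L lies 13.9 kb from HAND1 and its relative SAP30 148.6 kb from HAND2, and neither was called in any treatment comparison.

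Genes for the dimer partners of HAND factors and for their ID antagonists were examined next. The list holds the E-protein genes TCF3, TCF4 and TCF12 and the ID genes, whose products bind E-proteins and keep them from DNA. All 7 were tested. In SK-N-DZ 4 rose and 3 fell, in KELLY 5 rose and 0 fell, in IMR-32 5 rose and 1 fell, and with auxin 1 rose and 0 fell. Over all genes 9.88% were called higher and 9.55% lower in SK-N-DZ, and 6.57% and 4.98% in KELLY. The shares were 6.26% and 6.57% in IMR-32, and 1.03% and 1.16% with auxin. The median log2 change of the 7 genes was 0.33, 0.52, 0.63 and 0.11 in that order, against -0.04, 0.00, -0.02 and 0.00 over all genes. ID4 went from 77 and 72 counts with DMSO to 265 and 303 with BRM014 in IMR-32. It rose in each comparison, by 1.93 (SE 0.31) in SK-N-DZ, 2.77 (SE 0.34) in KELLY, 2.74 (SE 0.25) in IMR-32 and 1.15 (SE 0.30) with auxin. With BRM014 ID2 rose by 0.64 in SK-N-DZ, 0.67 in KELLY and 0.63 in IMR-32, and TCF4 by 0.33, 0.41 and 0.66. TCF3 fell in IMR-32 (-1.16, SE 0.28) and SK-N-DZ (-1.44, SE 0.25). ID1 rose in IMR-32 (0.77) and fell in SK-N-DZ (-0.51), and that difference was called (-1.28, adjusted p = 8.42e-07). With the GC and length offset 2, 5, 5 and 1 genes of the list were called higher and 1, 0, 0 and 0 lower, in the same order. The calls lost were those of TCF4, TCF12, ID1 and ID3 in SK-N-DZ, TCF4 in KELLY, and TCF3 and TCF12 in IMR-32, and ID1 in KELLY and ID3 in IMR-32 became called higher.

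**Figure D5:**
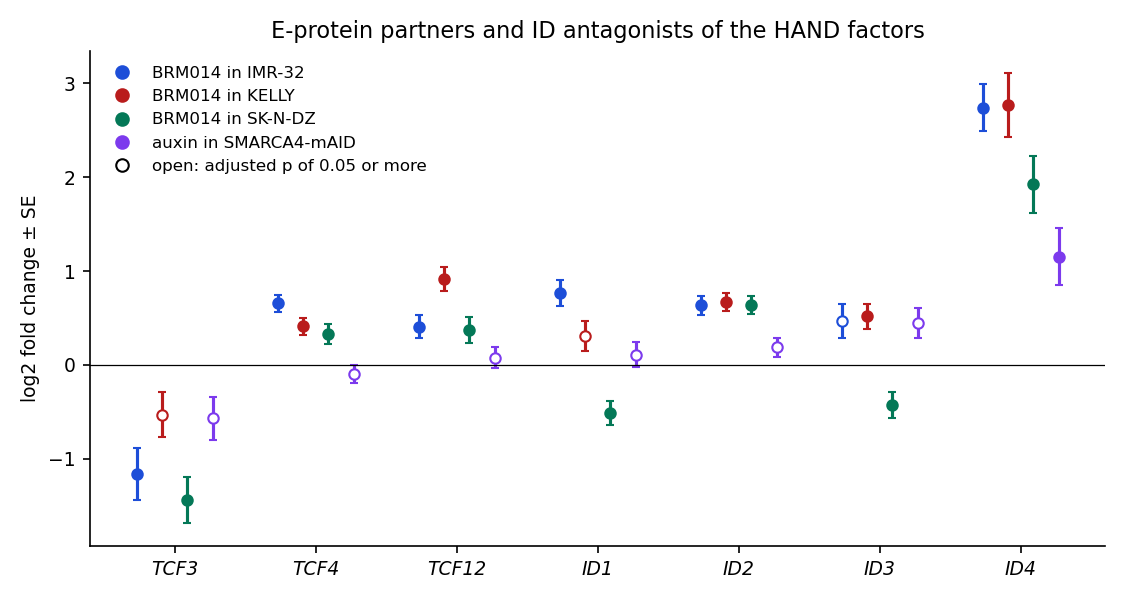
Log2 fold change with its SE for 3 E-protein genes and 4 ID genes in the 4 treatment comparisons; filled points passed an adjusted p of 0.05 and open points did not. ID4 lies above 1 in each comparison (1.15 to 2.77), and of the 4 comparisons ID1 and ID3 lie below 0 in SK-N-DZ only (-0.51 and -0.43).

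Other factors of the adrenergic circuit moved in both directions. Of 20 genes, all tested, 10 rose and 6 fell in SK-N-DZ, 8 and 7 in KELLY, 5 and 7 in IMR-32, and 3 and 3 with auxin. Over all genes the shares called higher and lower were 9.88% and 9.55%, 6.57% and 4.98%, 6.26% and 6.57%, and 1.03% and 1.16%. SOX4, a neuronal progenitor factor, rose by 1.23 in SK-N-DZ, 1.96 in KELLY and 1.56 in IMR-32, and TBX2 fell by 1.69, 1.80 and 1.20. GATA2, a sympathetic lineage factor, went from 2510 and 1811 counts to 509 and 460 in KELLY (log2 -2.20, SE 0.11). ISL1 rose in KELLY (1.79, SE 0.11). With auxin SIX3 rose (1.03, SE 0.16).

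Genes of noradrenergic function, which PHOX2 and HAND factors are known to help switch on, were called lower more often than higher with BRM014 in SK-N-DZ and KELLY, DBH, TH and RET among them. DBH and TH were hardly made in IMR-32 or SMARCA4-mAID cells. Of 18 genes, all tested, 2 rose and 8 fell in SK-N-DZ, 3 and 9 in KELLY, and 3 and 2 in IMR-32, beside the shares over all genes given with the neighbours (9.88% and 9.55%, 6.57% and 4.98%, 6.26% and 6.57%). In DESeq2 7 of the 18 fell in SK-N-DZ and 7 in KELLY. With auxin edgeR called 1.03% of all genes higher and 1.16% lower, and 0 of the 18 were called by edgeR or DESeq2, near that share. An unadjusted p was below 0.05 for 4 and 3 of the 18. Their median log2 change was -1.28, -0.98 and -0.07 in these lines, in that order. DBH, which turns dopamine into noradrenaline, had 351 and 284 counts with DMSO and 52 and 36 with BRM014 in KELLY, and 257 and 344 against 5 and 4 in SK-N-DZ. TH, the rate-limiting enzyme of catecholamine synthesis, had 197 and 89 counts against 1 and 0 in KELLY. The receptor kinase gene RET had 256 and 204 counts against 1 and 9 in KELLY and 166 and 250 against 1 and 1 in SK-N-DZ. SLC6A2, the noradrenaline transporter gene, was made in all lines and fell in SK-N-DZ (-1.35, SE 0.16), KELLY (-0.57, SE 0.15) and IMR-32 (-0.84, SE 0.18), with the KELLY call lost under the GC and length offset (-0.39, adjusted p = 0.0703). In IMR-32 DBH had 3 and 4 counts with DMSO, and in SMARCA4-mAID cells DBH and TH had none in 4 libraries, so a fall was not detectable at this depth. GATA3 is in this list and in the previous one.

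Of 9 genes related to TWIST, 2 were tested: TWIST1 rose in KELLY (1.41, SE 0.14) and fell in IMR-32 (-0.54, SE 0.16), and MSC went from 41 and 25 counts to 0 and 0 in KELLY. Of 12 cardiac and neural crest partners of HAND factors, 7 were tested, with 3 higher and 2 lower in SK-N-DZ (9.88% and 9.55% of all genes), 2 and 1 in KELLY (6.57% and 4.98%) and 2 and 0 in IMR-32 (6.26% and 6.57%). FOXC1 rose in IMR-32 (2.29, SE 0.20) and KELLY (3.71, SE 0.28), and GATA6 went from 3 and 2 counts to 93 and 101 in KELLY. BMP signalling, which induces HAND2 and PHOX2A in the embryo, gave 12 tested genes of 17, with 4 higher and 1 lower in SK-N-DZ, 3 and 1 in KELLY and 4 and 1 in IMR-32, to be read beside the same shares. In the same order, the receptor genes BMPR2 (0.88, 1.19 and 0.71) and BMPR1A (0.80, 0.65 and 0.78) rose and the ligand gene BMP7 fell (-0.98, -0.92 and -2.15). With the GC and length offset all 3 BMP7 calls were lost (adjusted p = 0.25, 0.122 and 0.0894), as were those of BMPR1A in KELLY (0.187), TWIST1 in IMR-32 (0.509) and PRRX2 in IMR-32 (0.173). Of 13 other paired-type homeobox genes 6 were tested, with SHOX2 higher in KELLY (3.25, SE 0.30), DRGX lower in SK-N-DZ and IMR-32, and PRRX2 lower in IMR-32. The calls in the TWIST and paired-type lists are likewise to be read beside the shares over all genes. With auxin edgeR called 1.03% of all genes higher and 1.16% lower, and 0 genes of these 4 lists were called by edgeR or DESeq2. At so low a share, 0 calls in short lists say little. An unadjusted p was below 0.05 for 0 of the TWIST list, 2 of the cardiac, 1 of the BMP and 2 of the paired-type list.

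Patterns over the 8 labelled group means were ranked by Pearson correlation among 8429 genes, as a description over points that share libraries and scaling. The genes most like PHOX2A were FLII (0.95), MED1 (0.95) and FAM69B (0.95). Those most like HAND1 were GALNT6 (0.98), MRPL21 (0.97) and CELF3 (0.97), and those most like HAND2 were FYTTD1 (0.99), CALM3 (0.98) and SOBP (0.98). Correlation takes no account of size, and MED1 ran only from 7.90 to 8.22 in mean log2 CPM. Of the genes just named, only CELF3 (lower with BRM014 in KELLY and SK-N-DZ) and GALNT6 (lower in KELLY) were called in a treatment comparison. Among the members, PHOX2A and HAND1 correlated at 0.65, HAND1 and HAND2 at 0.35, and PHOX2A and HAND2 at -0.41.

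The unlabelled KELLY libraries measured background. HAND1 had 4 and 0 counts there, HAND2 0 and 3 and HAND2-AS1 0 and 2. PHOX2A had 24 and 18 counts, 3.89% of its 1081 counts in labelled DMSO libraries (95% interval 2.80% to 5.25%, for counting error only and not scaled for depth), against 0.348% over all genes. Of 1381 genes with at least 500 labelled counts, 17 had a higher percentage than PHOX2A. The percentages were 0.331% for HAND1 and 0.0838% for HAND2.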

How the data were processed

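Per the labels' protocols, RNA of cells given 4-thiouridine was treated with iodoacetate and captured on poly(dT). Whole-number read counts, 1 row per gene symbol, are what the authors deposited for each library. The submitters' processing notes name HISAT, HTSeq, DESeq2 and hg38, without roles. The sources used here give neither the annotation nor the strand setting, nor how a read was assigned.

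The labels put 18 libraries into 9 groups of 2. Whether the 2 libraries of a group are separate cultures is not said, so the spread between them may be technical. Each p-value rests on that spread pooled over all labelled groups and drawn toward the spread of other genes. The median was 91.08 degrees of freedom, against 8 from the libraries alone. An SE can thus be smaller than a gene's own libraries would give, as for HAND1 in KELLY with BRM014 (104 and 196 CPM). Summary lines that name no gene entered neither library sizes nor tests, and reads without a feature made up 46.4% to 57.4% of labelled libraries. CPM (counts per 1000000) were taken over gene rows. The 16 labelled libraries entered 1 edgeR 4.0.16 quasi-likelihood fit in R 4.3.3 (TMM factors, filterByExpr, 12853 genes, 8 residual degrees of freedom, biological coefficient of variation 0.143). The call rule was an adjusted p (Benjamini-Hochberg, all genes tested) below 0.05. Each log2 change is measured against the bulk of genes in the library. Ratios between members used counts plus 0.5 and a two-sided exact permutation test over libraries in numpy 2.4.6, with Benjamini-Hochberg adjustment over 20 tests. The intervals for counting error in the unlabelled libraries came from scipy 1.17.1. Tests of the difference of ratios between arms were added after the data were seen. Lengths, GC content and positions come from GENCODE release 29, and promoters from RefSeq (GRCh38.p14), in which all 3 members were matched. The fit was tested on simulated data from 1 random seed. There it recovered a smaller share of the changed genes than calculated from their means and spread and slightly understated their fold change. These values describe that draw only. The limit for passing was reset after the first limits were missed.

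The alternatives were other scaling factors, no filter, DESeq2 1.42.0, a fit of 1 arm alone, a replicate block, leaving out each library, other pseudocounts, coding length, and an offset smoothed on GC content and transcript length, which 97.29% of the tested genes have. The members and the gene lists were chosen with earlier results of these data known. Named genes were the members, HAND2-AS1, SMARCA4 and SMARCA2, up to 4 called genes of each list with the smallest p per arm, the neighbours of each member, and the 3 genes whose pattern was most like each member's. Replicate numbers did not pair the samples. Some genes are not reported here.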

Additional observations from a re-analysis of the deposited data

Results flagged for a closer look

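Each value here is a difference of log2 changes between 2 comparisons that passed the threshold in edgeR's quasi-likelihood fit over all genes. HAND1 responded to BRM014 lower in KELLY than in IMR-32 (-2.17) and in SK-N-DZ than in IMR-32 (-1.24), with a higher value in SK-N-DZ than in KELLY (0.94). HAND1 was higher in both treated IMR-32 libraries than in either control, and lower in both treated KELLY and SK-N-DZ libraries. PHOX2A responded lower in KELLY (-1.05) and SK-N-DZ (-0.92) than in IMR-32. These 2 PHOX2A differences, and those of HAND1 against IMR-32, stayed called in all 15 alternatives run for each.

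The PHOX2A response to BRM014 in IMR-32 lay below that to auxin in SMARCA4-mAID cells (-0.63), and with the GC and length offset the difference was -0.21 (adjusted p = 0.716). HAND2-AS1 fell less in SK-N-DZ than in KELLY (0.49), and with BRM014 in IMR-32 it lay below auxin (-1.18). The last of these stayed called in all 15 alternatives. In both differences from auxin, agent, line and vehicle differ together and cannot be told apart.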

How the results depend on the processing

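In DESeq2 HAND1 gave 0.7356 in IMR-32 and -0.5230 in SK-N-DZ, neither called. HAND2 with BRM014 in IMR-32 was 0.0019 in DESeq2 and 0.0021 with RLE size factors, and the vehicle difference of HAND2 between SK-N-DZ and IMR-32 was 0.0685 with library totals, which moved the median of all genes to 0.1699 there and 0.1692 for KELLY minus IMR-32. The GC and length offset, first alone and then with the replicate block, gave -0.0408 and -0.0380 for HAND1 in SK-N-DZ. It gave 0.7148 and 0.7162 (SK-N-DZ), 0.4191 and 0.4191 (KELLY), 0.3813 and 0.3814 (IMR-32) and 0.3586 and 0.3598 (auxin) for HAND2. For PHOX2A it gave 0.0754 and 0.0766 (SK-N-DZ), -0.3313 and -0.3331 (KELLY) and 0.7495 and 0.7504 (IMR-32). For vehicle levels the pairs were 0.1606 and 0.1609 (HAND2, KELLY minus IMR-32), -0.9181 and -0.9182 (HAND2, SK-N-DZ minus IMR-32, both called), -0.3050 and -0.3033 (PHOX2A, KELLY minus IMR-32), 0.1480 and 0.1497 (PHOX2A, SK-N-DZ minus IMR-32) and -0.0846 and -0.0849 (PHOX2A, SMARCA4-mAID minus IMR-32). HAND2 for BRM014 in IMR-32 minus auxin was 0.0226 and 0.0217, and HAND2-AS1 with auxin -0.0335 and -0.0313. Per coding length the SK-N-DZ log2 level ratios turned to 0.0025 (HAND1 over PHOX2A), 0.1532 (HAND2 over HAND1) and 0.1557 (HAND2 over PHOX2A). The cause was not tested.

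Leaving out 1 library at a time, HAND1 ran from -0.5824 to -0.4324 in SK-N-DZ and from 0.5631 to 0.8690 in IMR-32. HAND2 ran from 0.0051 to 0.3615 in SK-N-DZ, -0.0152 to 0.1812 in KELLY, -0.1093 to 0.0328 in IMR-32 and 0.0622 to 0.4175 with auxin. The PHOX2A vehicle difference of KELLY and IMR-32 ran from 0.3166 to 0.4429 and that of SMARCA4-mAID and IMR-32 from -0.0057 to 0.2503, and HAND2-AS1 with auxin from -0.0381 to 0.0816. Between the SK-N-DZ and KELLY responses, HAND2 ran from -0.0746 to 0.2821 and PHOX2A from -0.0177 to 0.2598. These refits of differences between responses were chosen after seeing the data. With 1 library fewer, 1622 to 1893 genes were called in SK-N-DZ (2498 with all), 872 to 1160 in KELLY (1485), 922 to 1110 in IMR-32 (1650) and 131 to 158 with auxin (281).

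Same-numbered libraries did not deviate together (correlations of -0.0144 in IMR-32, -0.0088 in KELLY, 0.0106 in SK-N-DZ and -0.0337 with auxin), so the replicate numbers were not taken as pairs. The replicate block alone changed no call of the 3 members in the 4 treatment comparisons and gave 1703, 1533, 2509 and 300 called genes. The calls of HAND1 in KELLY and with auxin, of PHOX2A with auxin and of HAND2-AS1 with BRM014 in the 3 lines held under all 12 alternatives run for each. A planned coding length from RefSeq protein records was not run, and GENCODE coding length was used. Depth limits HAND1 in IMR-32 and in SMARCA4-mAID cells with ethanol, at 63 to 107 counts per library.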
